A study of Mus musculus with 6 samples.

Results

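Cyclic nucleotide phosphodiesterases were examined in interscapular brown adipose tissue of cold-exposed mice, across 10 genes that encode enzymes able to hydrolyse cyclic AMP: Pde1b, Pde2a, Pde3a, Pde3b, Pde4a, Pde4b, Pde4d, Pde7a, Pde8a and Pde8b. They were chosen by name, as rows of a deposited table of 54385 genes, and all 10 passed the filter on low counts. The tissue came from C57BL/6N mice aged 20 weeks, in 2 groups of 3 libraries, wild type (wt/wt) and ADCY3∆AT, which lacks the truncated AT form of adenylyl cyclase 3. Both groups had eaten chow until 8 weeks of age and then a high-fat diet for 12 weeks, and both were held at 4 °C for 24 h, so no library shows the unchallenged state. Whether the deletion acts in adipocytes alone or in the whole animal is not stated in the labels. Replicates are numbered, but no label says whether they are different animals, so p-values measure the spread between these libraries, which may be technical. Pairs of libraries within a genotype differed by more than the sampling of reads alone gives, with a chi-square per degree of freedom of 24.3 to 59.8. The source of this spread was not tested.

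Cyclic AMP carries the signal of noradrenaline in brown fat: β-adrenergic receptors activate adenylyl cyclases through Gs, and the cyclic AMP made activates protein kinase A, which drives lipolysis and the thermogenic genes. Phosphodiesterases end that signal by turning cyclic AMP into AMP, and the families differ in what controls them. The product of Pde3b is the form that insulin activates in adipocytes to restrain lipolysis, and it is inhibited by cyclic GMP. The Pde4 enzymes act on cyclic AMP alone and are activated by protein kinase A, Pde2a is stimulated by cyclic GMP, Pde1b by calcium and calmodulin, and Pde7a, Pde8a and Pde8b are cyclic AMP-specific enzymes of high affinity.

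The libraries held 44826777 to 54933588 estimated counts. Adcy3, the targeted gene, had 677, 728 and 652 CPM (estimated counts scaled to the TMM-normalised library total) in wild-type replicates 1, 2 and 3 and 349, 342 and 506 CPM in those of ADCY3∆AT, the order kept throughout. Every ADCY3∆AT library thus lay below every wild-type library, with replicate 3 nearest to wild type. A separate row whose identifier ends in the same digits, ENSMUSG66666620654, held 629, 552 and 477 CPM across wild-type replicates and was listed at 0 in each ADCY3∆AT library. All 15 brown adipocyte markers were detected in all 6 libraries. Their summed level did not overlap between genotypes, at 22050 to 22122 CPM in wild type and 21051 to 21656 CPM in ADCY3∆AT. Of the 15, 10 had a negative log2 fold change, with a median of -0.04. In edgeR 0 were called, and 2, Elovl3 and Dio2, were lower at an unadjusted p under 0.05, as were 5.78% of all genes tested. Their wild-type means were 435 and 703 CPM, against 333 and 418 CPM in ADCY3∆AT. Both genes are in the sum, so the gap between the summed levels rests partly on them. Skeletal muscle markers differed by more: their summed level was 1415 to 4081 CPM across wild-type replicates, against 72.1, 309 and 587 CPM in ADCY3∆AT, and 2 of the 16 were at 0 in ADCY3∆AT replicate 1. The part of these differences in the values that follow was not tested. In bulk tissue, fewer cells of a type and less RNA per cell cannot be told apart.

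Pde2a needs its sequence context before its values. The Pde2a row (ENSMUSG00000110195, plus strand, chr7:101421691-101512827, GRCm38) shares exons with a second row on the same strand, Gm45837 (ENSMUSG00000030653), which GENCODE M21 tags as a readthrough transcript. Of the 4139 bases of that transcript, 3955 (95.6%) lie in exons of Pde2a. The remaining 184 bases are its first exon (chr7:101410886-101411069), of which 150 also lie in exons of the upstream gene Arap1. The start of the coding sequence is shown next for Gm45837-201 and for Pde2a-201 and Pde2a-204, which are Pde2a transcripts with different first exons. Lower case marks the coding part of each first exon, and capitals mark the second exon of 67 bases (chr7:101451402-101451468), which is the same in all of them:
Gm45837-201: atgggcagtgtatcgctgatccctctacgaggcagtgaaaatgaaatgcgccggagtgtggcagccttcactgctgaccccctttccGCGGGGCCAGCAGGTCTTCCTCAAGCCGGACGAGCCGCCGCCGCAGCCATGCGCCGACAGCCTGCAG
Pde2a-201: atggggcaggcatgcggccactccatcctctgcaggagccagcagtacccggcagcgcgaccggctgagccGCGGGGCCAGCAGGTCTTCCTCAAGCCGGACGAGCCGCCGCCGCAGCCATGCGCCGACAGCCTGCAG
Pde2a-204: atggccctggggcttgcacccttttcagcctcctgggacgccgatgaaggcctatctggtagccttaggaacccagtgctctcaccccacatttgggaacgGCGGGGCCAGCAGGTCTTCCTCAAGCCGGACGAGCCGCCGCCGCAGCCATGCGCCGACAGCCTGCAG
A read from the capitals alone fits all of these transcripts, so an estimated count must divide such reads between both rows.

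The levels of the 10 genes were compared per length, as CPM per kb of annotated exon. Pde3b was by far the most abundant, at 52.3 ± 2.81 CPM per kb across wild-type replicates, against 46.7 ± 1.65 CPM per kb in ADCY3∆AT (SD, n = 3 each). It made up 52.4%, 53.9% and 54.3% of the summed level of all 10 across wild-type replicates, against 51.8%, 52.3% and 50.9% in ADCY3∆AT. Pde8a came next in wild type at 13.2 ± 0.318 CPM per kb (SD, n = 3), followed by Pde2a at 9.55 ± 1.36 and Pde4d at 9.21 ± 1.40 CPM per kb. Pde4a had 5.07 ± 0.230, Pde4b 2.90 ± 0.753, Pde3a 2.50 ± 0.129 and Pde7a 1.55 ± 0.0602 CPM per kb in wild type (SD, n = 3 each). At the low end lay Pde1b at 0.951 ± 0.0836 and Pde8b at 0.460 ± 0.0696 CPM per kb.

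The order was the same in both genotypes. Neighbours in it were separated in every library except for 2 pairs, Pde2a with Pde4d and Pde4b with Pde3a, which overlapped within each genotype. The order in the middle depended on the length used: scaled to the longest annotated transcript, Pde4d took the second place in wild type with 26.3 CPM per kb, ahead of Pde8a with 14.0 and Pde2a with 13.9 CPM per kb. Pde3b stayed first, at 72.5 CPM per kb. Its share of the summed level was then smaller, at 46.9%, 49.4% and 50.2% across wild-type replicates, against 48.1%, 48.2% and 45.9% in ADCY3∆AT. The summed level of the 10 genes, per kb of exon, was 97.5, 103 and 92.5 CPM per kb across wild-type replicates, against 91.1, 85.8 and 94.5 CPM per kb in ADCY3∆AT. These sums overlapped, since ADCY3∆AT replicate 3 lay above wild-type replicate 3.

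**Figure D1:**
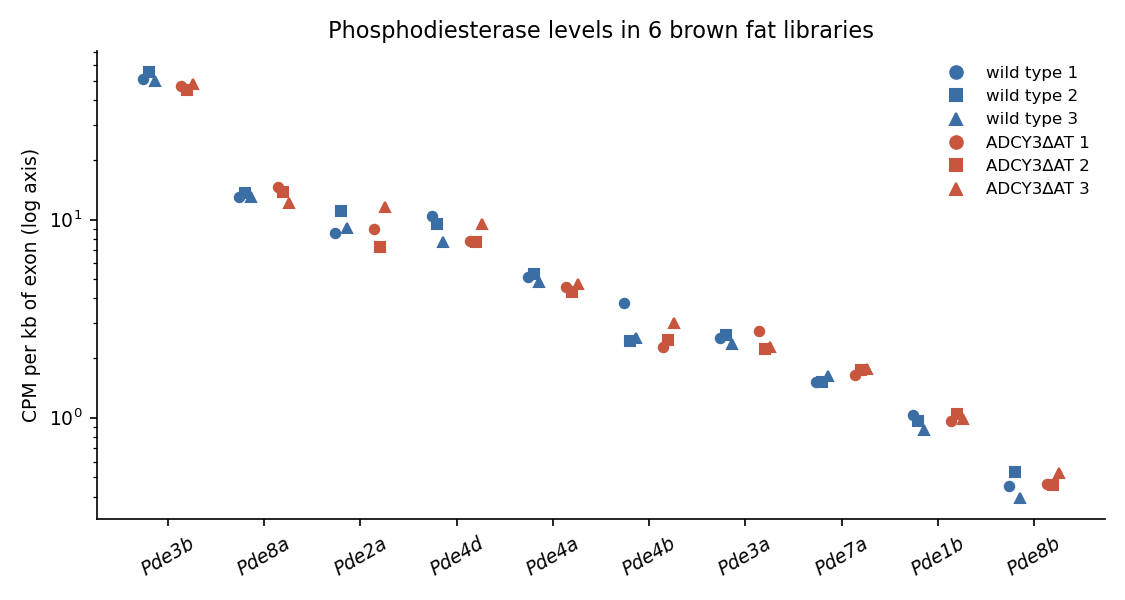
CPM per kb of exon (log axis) of the 10 phosphodiesterase genes in each of 3 wild-type (blue) and 3 ADCY3∆AT (red) libraries, in order of the wild-type mean, with the replicate number as the symbol. Pde3b stands alone at the top, with a wild-type mean of 52.3 CPM per kb, and Pde8b is lowest at 0.460.

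None of the 10 genes passed the test between genotypes. In edgeR's quasi-likelihood test over 18114 genes, with Benjamini-Hochberg adjustment, 0 of 10 were called at an adjusted p of 0.05, where 1 row (0.00552%), ENSMUSG66666620654, was called over the whole table. DESeq2 also called 0 of the 10, against 1.17% of the 19841 genes it tested, and limma voom called 0. Log2 fold changes in ADCY3∆AT relative to wild type were negative for 6 members and positive for 4, with a median of -0.05, beside 0.00392 over all genes tested. The median absolute log2 fold change was 0.11 for the members and 0.12 over all genes. At an unadjusted p under 0.05 in edgeR there were 2 members, Pde3b and Pde4a, both with lower values in ADCY3∆AT, where 5.78% of all genes were lower, 5.23% were higher and 11.0% passed that threshold in either direction. The libraries of the groups did not overlap for these same genes on the lower side (8.83% of all genes) and for Pde7a on the higher side (7.68%).

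Pde3b (ENSMUSG00000030671, plus strand, chr7:114415281-114539251), the insulin-regulated form, had 466, 506 and 458 CPM across wild-type replicates, against 430, 409 and 438 CPM in ADCY3∆AT. The highest ADCY3∆AT library lay below the lowest wild-type library, by a narrow margin. The means were 477 ± 25.6 and 426 ± 15.0 CPM (SD, n = 3 each). The log2 fold change was -0.16 ± 0.06 (SE; 95% interval -0.30 to -0.03), a change of -10.7%, and it did not pass in edgeR (adjusted p = 0.367) or DESeq2 (adjusted p = 0.331). By exact permutation of the libraries (two-sided, on log2 CPM) p was 0.1, the smallest that 3 against 3 can give. The interval runs from -18.5% to -2.07%. The brown adipocyte markers were lower in sum in each ADCY3∆AT library, a gap that rests partly on Elovl3 and Dio2. Their part in the Pde3b value was not tested. Without wild-type replicate 2, its highest library, the log2 fold change was -0.12.

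Pde3a (ENSMUSG00000041741, plus strand, chr6:141249269-141507448), the family member best known from heart, platelets and smooth muscle, had 32.2, 33.4 and 30.1 CPM across wild-type replicates, against 34.8, 28.4 and 29.0 CPM in ADCY3∆AT. The ADCY3∆AT libraries lay on both sides of wild type. Its log2 fold change was -0.05 ± 0.09 (SE; edgeR adjusted p = 0.854), with a 95% interval of -0.25 to 0.14. Leaving out single libraries gave log2 fold changes from -0.15 without ADCY3∆AT replicate 1 to -0.00070 without ADCY3∆AT replicate 2. Smooth muscle and pericyte markers had a median log2 fold change of -0.02 over 12 genes. An antisense gene, Gm28523, covers 5.82% of the exon length of Pde3a, but its row held counts equal to only 0.559% of those of Pde3a.

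Of the Pde4 genes, which encode the cyclic AMP-specific enzymes inhibited by rolipram, Pde4a (ENSMUSG00000032177, plus strand, chr9:21165714-21213248) had 39.1, 40.4 and 36.9 CPM across wild-type replicates, against 34.8, 32.8 and 36.2 CPM in ADCY3∆AT. The groups did not overlap, although the nearest libraries, replicate 3 of each, were close. Its log2 fold change was -0.17 ± 0.06 (SE), with a 95% interval of -0.30 to -0.03, an edgeR adjusted p of 0.375 and a DESeq2 adjusted p of 0.564. Pde4d (ENSMUSG00000021699, plus strand, chr13:108449948-109953461) had 125, 114 and 92.1 CPM across wild-type replicates, against 93.2, 92.8 and 113 CPM in ADCY3∆AT. Wild-type replicate 3 was the lowest of all 6 libraries, and ADCY3∆AT replicate 3 lay near wild-type replicate 2. The log2 fold change of Pde4d was -0.15 ± 0.12 (SE; edgeR adjusted p = 0.700) and ranged from -0.26 without wild-type replicate 3 to -0.05 without wild-type replicate 1.

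Pde4b (ENSMUSG00000028525, plus strand, chr4:102087543-102607259), the form prominent in immune cells, rested on a single library. It had 39.8, 25.6 and 26.5 CPM across wild-type replicates, against 24.1, 26.0 and 31.9 CPM in ADCY3∆AT, so that only wild-type replicate 1 was high. The log2 fold change was -0.17 ± 0.17 (SE; edgeR adjusted p = 0.765) and turned to 0.07 without that library. Macrophage markers, 12 genes of which none was at 0 in any library, summed to 238, 158 and 180 CPM across wild-type replicates, against 175, 253 and 252 CPM in ADCY3∆AT. Wild-type replicate 1 was thus the highest of its group for this list too. Lymphocyte markers, 12 genes of which 8 passed the low-count filter, summed to 33.1, 21.6 and 28.8 CPM in wild type, below the 49.1, 64.0 and 33.8 CPM of ADCY3∆AT. All 8 had a positive log2 fold change (median 0.41; 0 called in edgeR), and 1 of the 12 was at 0, in ADCY3∆AT replicate 1. The part of either cell type in the Pde4b value was not tested.

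**Figure D2:**
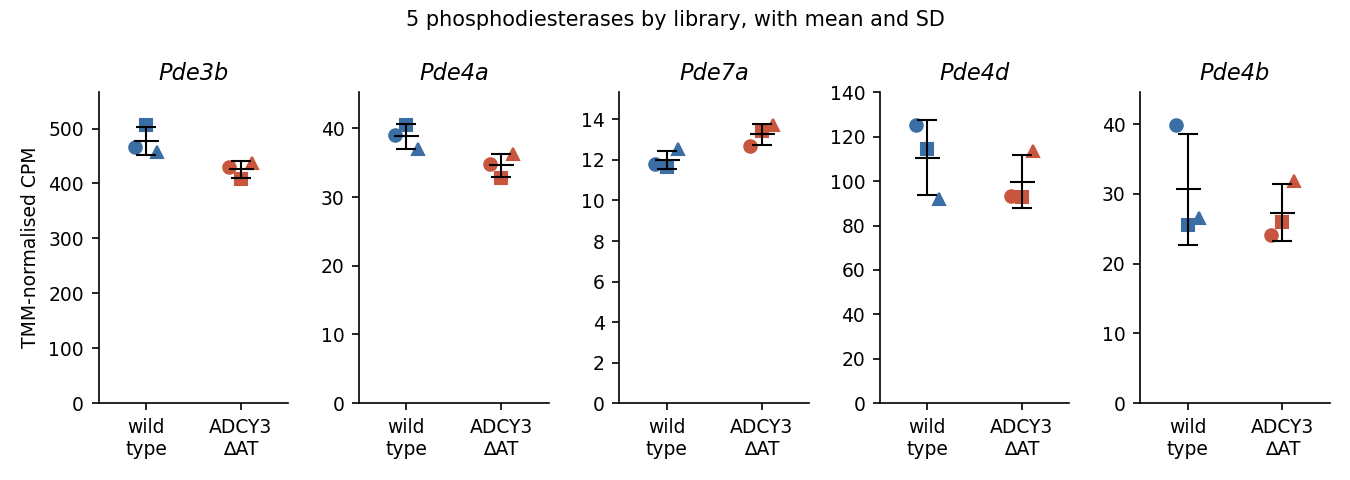
TMM-normalised CPM of Pde3b, Pde4a, Pde7a, Pde4d and Pde4b in each library (blue, wild type; red, ADCY3∆AT; circle, square and triangle for replicates 1, 2 and 3), with the mean and SD of 3 in black and each axis starting at 0. The groups do not overlap for the first 3 genes, with a highest ADCY3∆AT value of 438 CPM against a lowest wild-type value of 458 CPM for Pde3b, and they overlap for Pde4d and Pde4b.

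The members of high affinity were not called either. Pde7a (ENSMUSG00000069094, minus strand, chr3:19223108-19311322) had 11.8, 11.7 and 12.5 CPM across wild-type replicates, against 12.7, 13.4 and 13.7 CPM in ADCY3∆AT. Every ADCY3∆AT library lay above wild type, the nearest ones by a small step. Its log2 fold change was 0.15 ± 0.07 (SE; 95% interval -0.02 to 0.31; edgeR adjusted p = 0.509). Pde8a (ENSMUSG00000025584, plus strand, chr7:81213596-81334533) had 52.7, 54.7 and 52.3 CPM across wild-type replicates, against 59.2, 55.7 and 48.9 CPM in ADCY3∆AT, a narrow wild-type group inside a wider ADCY3∆AT group. The log2 fold change of Pde8a was 0.04 ± 0.07 (SE; edgeR adjusted p = 0.892), with a 95% interval of -8.63% to 15.0%.

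Pde8b and Pde1b were the lowest of the set, at 106 to 146 and 213 to 305 estimated counts per library. Pde8b (ENSMUSG00000021684, minus strand, chr13:95024454-95250336) had 2.66, 3.13 and 2.32 CPM across wild-type replicates, against 2.71, 2.70 and 3.08 CPM in ADCY3∆AT, a log2 fold change of 0.07 ± 0.16 (SE; edgeR adjusted p = 0.914). Its 95% interval ran from -19.1% to 35.5%. The antisense gene Gm48420 covers 7.60% of the exon length of Pde8b and its row held counts equal to 22.8% of those of Pde8b. Since no source used here says that strand was used in counting, reads of these genes may not be told apart, and with both rows summed the log2 fold change of Pde8b was 0.03 ± 0.15. Pde1b (ENSMUSG00000022489, plus strand, chr15:103503034-103530052), the calmodulin-dependent member, had 5.56, 5.18 and 4.66 CPM across wild-type replicates, against 5.18, 5.63 and 5.29 CPM in ADCY3∆AT, with a log2 fold change of 0.06 ± 0.11 (SE; edgeR adjusted p = 0.871).

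Pde2a, stimulated by cyclic GMP and well known from endothelium, was the member whose value depended on how its reads were counted. The Pde2a row had 52.4, 68.2 and 55.6 CPM across wild-type replicates, against 55.1, 44.7 and 71.1 CPM in ADCY3∆AT. The genotypes overlapped, with a log2 fold change of -0.04 ± 0.16 (SE; edgeR adjusted p = 0.948). The Gm45837 row had 10.8, 0 (listed at 0) and 11.1 CPM across wild-type replicates, against 16.2, 27.7 and 3.14 CPM in ADCY3∆AT. Within each genotype the library with the least Gm45837 held the most Pde2a, and in ADCY3∆AT replicate 2, where Gm45837 took 38.2% of the counts of both rows, Pde2a was lowest.

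Summed over both rows, a choice made after their values had been seen, the level was 63.1, 68.2 and 66.7 CPM across wild-type replicates, against 71.3, 72.4 and 74.3 CPM in ADCY3∆AT. The coefficient of variation within wild type went from 14.3% for Pde2a alone to 3.98% for the sum, and within ADCY3∆AT from 23.4% to 2.09%. All ADCY3∆AT sums lay above all wild-type sums. The log2 fold change of the sum was 0.14 ± 0.05 (SE; 95% interval 0.02 to 0.26), opposite in sign to the row alone, and it did not pass in edgeR (adjusted p = 0.386). By exact permutation (two-sided) p was 0.1, again the smallest possible. Leaving out each library in turn gave log2 fold changes of 0.11 to 0.16, with edgeR adjusted p-values of 0.420 to 0.692.

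Endothelial markers were measured in the same libraries. Of 12, 10 had a positive log2 fold change, with a median of 0.14, and 7 did not overlap between genotypes on the higher side, as did 7.68% of all genes. None passed the adjusted threshold in edgeR (0 of 12), while 5, all higher, had an unadjusted p under 0.05, as did 5.23% of all genes. Their summed level was 1484, 1431 and 1446 CPM across wild-type replicates, against 1512, 1591 and 1613 CPM in ADCY3∆AT, and none was at 0 in any library. The part of endothelial cells in the summed Pde2a value was not tested.

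**Figure D3:**
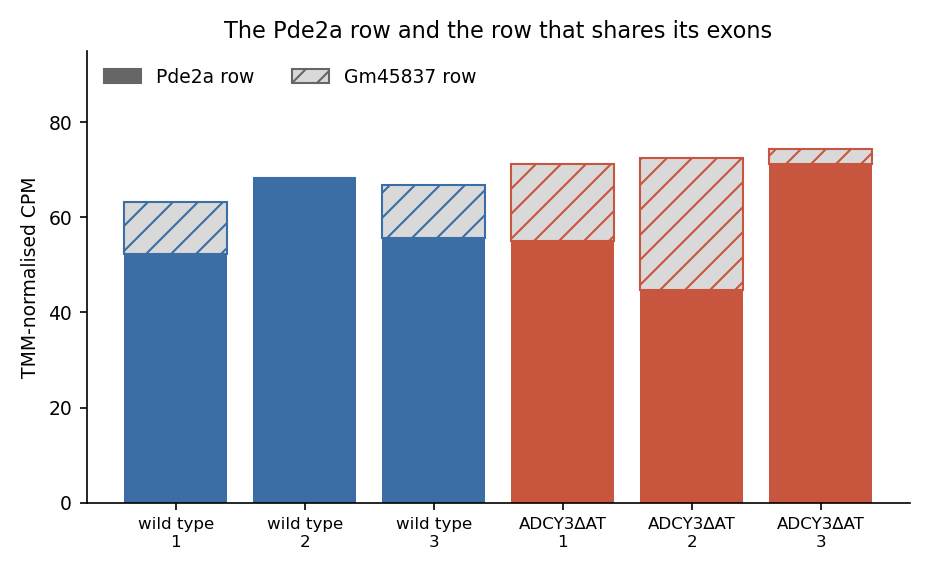
Stacked bars of TMM-normalised CPM in each library for the Pde2a row (solid; blue, wild type; red, ADCY3∆AT) and the Gm45837 row that shares its exons (hatched). The solid parts vary from 44.7 to 71.1 CPM, while the full bars run from 63.1 to 68.2 CPM across wild-type replicates, against 71.3 to 74.3 CPM in ADCY3∆AT.

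Across the 10 members, libraries differed within genotypes. ADCY3∆AT replicate 3 held the highest value of its group for 7 of 10 genes and ADCY3∆AT replicate 2 the lowest for 6. Wild-type replicate 3 was the lowest of its group for 7. How often each library is highest or lowest over all genes was not counted, so it is not known whether these ranks are particular to the members. Some rest on small steps, as for Pde4d, with 93.2 and 92.8 CPM in ADCY3∆AT replicates 1 and 2. For Pde2a they depend on the split with Gm45837. Adcy3 itself was highest in ADCY3∆AT replicate 3, at 506 CPM, and Dio2, a thermogenic gene induced by cyclic AMP, had 310, 328 and 616 CPM in ADCY3∆AT, all below its wild-type range of 623 to 816 CPM. So were the libraries of 8.83% of all genes, and Dio2 was not called (log2 fold change -0.75 ± 0.25, SE; edgeR adjusted p = 0.334). The skeletal muscle markers were also highest in replicate 3 of ADCY3∆AT.

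Outside the 10 genes, 14 other genes named as cyclic nucleotide phosphodiesterases or their subunits were in the table. Of these, 11 passed the low-count filter, and Pde6a, Pde6b and Pde6c, catalytic subunits of photoreceptors, did not. The 11 include Pde6d, Pde6g and Pde6h, which do not encode catalytic subunits. Among the 11, 0 were called in edgeR and 2, both lower, had an unadjusted p under 0.05 (5.78% of all genes), and their median log2 fold change was 0.04. Pde7b, a cyclic AMP-specific gene, was the most abundant of the 11 at a wild-type mean of 8.71 CPM per kb, and had 106, 118 and 101 CPM across wild-type replicates, against 63.0, 71.7 and 107 CPM in ADCY3∆AT. ADCY3∆AT replicates 1 and 2 lay below wild type, and replicate 3 lay within it. The log2 fold change was -0.43 ± 0.18 (SE; edgeR adjusted p = 0.428; DESeq2 adjusted p = 0.734), and without ADCY3∆AT replicate 3 it was -0.69 and passed in edgeR (adjusted p = 0.0424). In that setting 66 of all 18582 genes tested passed, against 1 with all 6 libraries. Without ADCY3∆AT replicate 1 the log2 fold change of Pde7b was -0.28, and over the 6 libraries left out in turn its edgeR adjusted p ran from 0.0424 to 0.764.

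Pde1a, calmodulin-dependent like Pde1b, had 13.5, 16.0 and 15.6 CPM across wild-type replicates, against 12.8, 11.4 and 12.3 CPM in ADCY3∆AT. Its groups did not overlap, and its log2 fold change was -0.30 ± 0.09 (SE; edgeR adjusted p = 0.293; DESeq2 adjusted p = 0.261). Pde10a, a dual-substrate form, had 14.8, 11.6 and 11.8 CPM across wild-type replicates, against 9.62, 10.2 and 12.9 CPM in ADCY3∆AT, with a log2 fold change of -0.22 ± 0.14 (SE; edgeR adjusted p = 0.598). That value ran from -0.36 without ADCY3∆AT replicate 3 to -0.10 without wild-type replicate 1. The other tested genes, Pde1c, Pde4c, Pde5a, Pde6d, Pde6g, Pde6h, Pde9a and Pde11a, each had a wild-type mean under 9 CPM and log2 fold changes from -0.06 (Pde1c) to 0.11 (Pde6d and Pde6h).

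**Figure D4:**
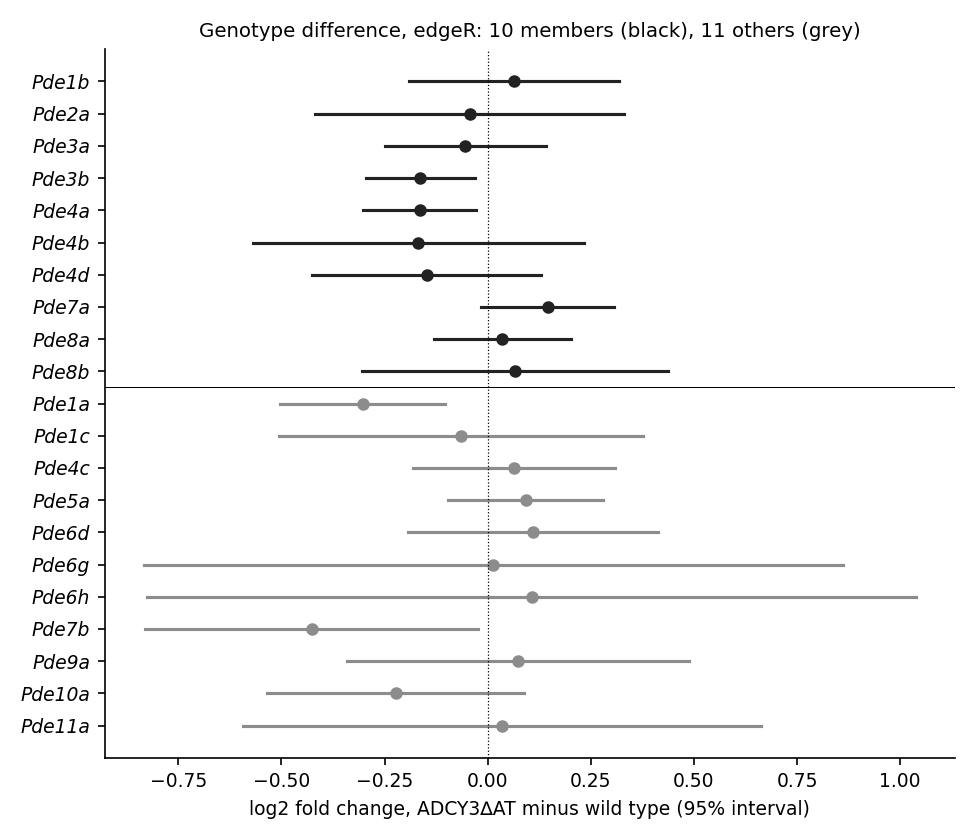
Log2 fold change of ADCY3∆AT relative to wild type with its 95% interval from edgeR, for the 10 members (black) and the 11 other tested genes named as phosphodiesterases or their subunits (grey), with the dotted line at 0. Intervals of Pde3b, Pde4a, Pde1a and Pde7b lie below 0 before adjustment over all genes, and the highest upper bound among these is -0.02 for Pde7b.

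The rest of the pathway was read from the same fit. Of 18 genes of cyclic AMP synthesis and its input, 0 were called, with 2 higher and 4 lower at an unadjusted p under 0.05. Over all genes 5.23% were higher and 5.78% lower at that threshold. Adcy3 had a log2 fold change of -0.78 ± 0.14 (SE; edgeR adjusted p = 0.158) and passed in DESeq2, with no low-count filter and without ADCY3∆AT replicate 3. Beside it, Gnai2, an inhibitory G protein subunit, had 0.18 ± 0.05 (edgeR adjusted p = 0.271) and the cyclase Adcy2, which was under 1.3 CPM in every library, -1.01 ± 0.34 (0.339). Of 16 tested cyclic AMP effectors, 0 were called, with 2 higher and 4 lower at an unadjusted p under 0.05, beside 5.23% and 5.78% of all genes. The regulatory protein kinase A subunit Prkar2a had -0.23 ± 0.06 (edgeR adjusted p = 0.232) and the CREB coactivator Crtc3 0.27 ± 0.07 (0.252). The cyclic AMP-binding muscle protein gene Bves, measured beside the muscle markers given above, had -2.61 ± 0.72 (edgeR adjusted p = 0.271). It was near the floor, with 14, 12 and 43 estimated counts across wild-type replicates, against 1, 5 and 5 in ADCY3∆AT.

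Among 25 regulators and anchors of phosphodiesterases, 0 were called in edgeR, while 3 were higher and 4 were lower at an unadjusted p under 0.05, beside 5.23% and 5.78% of all genes. Their median log2 fold change was 0.01. The muscle-enriched anchor Akap6 had -1.18 ± 0.26 (SE; edgeR adjusted p = 0.200), Pde4dip, whose product myomegalin binds Pde4d, -0.45 ± 0.12 (0.250), and Arrb1, a β-arrestin that brings Pde4d to activated receptors, 0.33 ± 0.09 (0.252). Pde4dip had 82.7, 69.1 and 100 CPM across wild-type replicates, against 62.3, 60.2 and 62.0 CPM in ADCY3∆AT, a tight group below all wild-type libraries. Akap6 and Pde4dip were called in DESeq2 and with no low-count filter, and both were highest in wild-type replicate 3, the library with the most skeletal muscle marker RNA (4081 CPM). Within ADCY3∆AT they did not rise with the muscle markers. Those summed to 72.1, 309 and 587 CPM there, where Akap6 had 1.07, 0.874 and 1.08 CPM and Pde4dip the values above. The part of muscle in these values was not tested. Of 9 tested genes of cyclic GMP synthesis and action, which set the activity of Pde2a, Pde3a and Pde3b, 0 were called. On the higher side 1, the natriuretic peptide receptor Npr2, had an unadjusted p under 0.05, as did 5.23% of all genes. Its log2 fold change was 0.15 ± 0.06 (edgeR adjusted p = 0.419). The soluble guanylyl cyclase subunit Gucy1a1 had 0.17 ± 0.12 (edgeR adjusted p = 0.648) and the cyclic GMP-dependent kinase Prkg1 -0.11 ± 0.10 (0.747).

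RefSeq promoters (GRCm38.p6, 250 bases before to 50 after a start) were searched for the cyclic AMP response element, whose core is the half-site TGACG and whose full palindrome is TGACGTCA, on both strands, since Pde4 genes are known targets of cyclic AMP. Pde3a, Pde3b and Pde7a had no entry among these promoters, so nothing is said of them here. Of the 7 members with entries, which hold 22 promoters, none had the full site, which 1.79% of all 32851 promoters hold. The half-site was in 5 of the 22 promoters (22.7%), against 20.8% of all. The 3 in which it lies upstream of the start are shown with 20 bases on either side, plus strand, 5′ to 3′, with the half-site or its complement in capitals. That of Pde4a is at chr9:21184031-21184075, that of Pde4b at chr4:102421501-102421545 and that of Pde8a at chr7:81213161-81213205:
Pde4a: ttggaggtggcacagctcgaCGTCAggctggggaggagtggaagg
Pde4b: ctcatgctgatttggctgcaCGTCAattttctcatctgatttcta
Pde8a: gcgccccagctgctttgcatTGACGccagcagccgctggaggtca
A match of letters is a description and not a binding site. The genes shown had log2 fold changes of -0.17, -0.17 and 0.04.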

How the data were processed

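Paired-end libraries of total RNA were made with the NEBNext Ultra II kit, per the labels' protocols. The authors deposited estimated counts per Ensembl gene, not normalised, of which 31.6% were not whole numbers. The submitters' processing notes list Salmon, StringTie, edgeR and the build GRCm38, but not their roles. Sample labels give the depot as interscapular, which is followed here, although the design text has inguinal.

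Symbols, coordinates and exon lengths came from GENCODE M21 (GRCm38), which matched 54131 of 54385 rows. Estimated counts were rounded, filtered with filterByExpr (18114 genes kept), scaled with TMM and tested with edgeR 4.0.16 in R 4.3.3 (quasi-likelihood F test, Benjamini-Hochberg adjustment over all genes tested, no covariate beside genotype). Standard errors are those implied by the F statistic, and intervals are unadjusted. CPM are TMM-normalised, log2 CPM used a prior count of 2, and CPM per kb divides by the union of annotated exons. DESeq2 1.42.0 and limma voom 3.58.1 were alternatives. The edgeR script was tested on simulated data.

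Members and gene lists were chosen with earlier results of these data known. All 10 members were named, together with the tested other phosphodiesterases and, for each pathway list, the 3 lowest p-values. Dio2, Gm45837, Gm48420 and Gm28523 were picked with their values in view.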

Additional observations from a re-analysis of the deposited data

How the results depend on the processing

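The count of members called was 0 under every alternative run, planned or added: RLE factors, library totals alone, no low-count filter, at least 1 CPM in at least 3 libraries, DESeq2, limma voom, robust edgeR, the replicate block, an adjusted p of 0.1, each library left out, and summed rows. Over all genes the count of calls went from 1 to 214 with no low-count filter, 232 in DESeq2, 2 in limma voom, 2 with robust edgeR and 3 with the replicate block, and from 1 to 66 when single libraries were left out, with 66 without ADCY3∆AT replicate 3. Calls in the pathway lists went from 0 to 2 among regulators and anchors (Akap6, Pde4dip) and from 0 to 1 in cyclic AMP input (Adcy3), both in DESeq2 and with no low-count filter, and from 0 to 1 in cyclic AMP input (Adcy3) and the other phosphodiesterases (Pde7b) without ADCY3∆AT replicate 3. These list alternatives were chosen after seeing the data. Causes were not tested. Of 142 member fold changes recomputed, 7 turned in sign. For Pde2a, summing with Gm45837 gave 0.14. The other turns came from leaving out 1 library: Pde2a ranged from -0.24 to 0.10 (0.08 without wild-type replicate 2, 0.10 without ADCY3∆AT replicate 2), Pde4b from -0.30 to 0.068, Pde1b from -0.00099 to 0.13 (lowest without wild-type replicate 3), Pde8b from -0.032 to 0.18 and Pde8a from -0.027 to 0.11. Pde3b (-0.19 to -0.12), Pde4a (-0.20 to -0.13), Pde4d (-0.26 to -0.05), Pde3a (-0.15 to -0.00070) and Pde7a (0.12 to 0.18) kept their sign. Same-numbered libraries did not deviate together (correlations of -0.09, -0.13 and -0.09 over genes), so the replicate number was not treated as a pairing, and with it as a block the unadjusted p of Pde3b was 0.0660. Intervals cover the spread between 3 libraries only. Scaled to the longest transcript in place of all exons, a shorter length by construction, levels in wild type and ADCY3∆AT were 1.22 and 1.27 CPM per kb for Pde1b, 13.9 and 13.5 for Pde2a, 72.5 and 64.8 for Pde3b, 8.34 and 7.44 for Pde4a, 7.12 and 6.34 for Pde4b, 26.3 and 23.7 for Pde4d, 1.91 and 2.11 for Pde7a, 0.639 and 0.668 for Pde8b, and 14.0 for Pde8a in wild type.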
